A study of Mus musculus with 2 samples.

Results

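The 10 genes described here code for enzymes, carriers and receptors of the retinoic acid pathway, namely Aldh1a1, Aldh1a2, Aldh1a3, Aldh1a7, Cyp1b1, Cyp26b1, Rarb, Rarg, Crabp1 and Crabp2. They were taken by symbol from the 21849 features of a single-cell RNA-seq data set of costal-cartilage-derived stem cells (CDSCs), and every symbol was found. Aldh1a7 and Cyp1b1 were picked because they had been seen to be higher in culture, so their ratios between the libraries are a description. The mice were C57BL/6J of either the CD45.1 strain or the ZsGreen strain, within 1 week of birth. Rib cartilage was digested with collagenase II and cells that lack CD45, a blood cell protein, and carry CD51, an integrin, were sorted. The primary CDSCs gave 1 library straight after isolation, and the cultured CDSCs gave 1 library after expansion in serum-containing medium to passages 2 to 3. As each group is 1 library, there is no replicate check on any difference and none was tested.

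Retinoic acid is made from vitamin A. Dehydrogenases of the retinol and short-chain families first convert retinol to retinaldehyde, which the Aldh1a enzymes then oxidize to retinoic acid. Retinoic acid acts on nuclear receptors that pair a retinoic acid receptor (Rara, Rarb or Rarg) with a retinoid X receptor, and Cyp26 enzymes inactivate it. In developing cartilage the ligand is known to hold back chondrocyte differentiation, and Cyp26b1 is known to keep it low.

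Each cell barcode came with the number of its unique molecular identifiers (UMIs) per gene, where a UMI counts a captured RNA molecule. A barcode was kept if it held 500 or more genes, 1000 or more UMIs and no more than 10% of its UMIs in mitochondrial genes, which left out 150 of 11896 primary and 5460 of 10798 cultured barcodes and gave 11746 primary cells with 137148874 UMIs and 5338 cultured cells with 330129909 UMIs. The medians were 10026.5 and 56864.5 UMIs per cell. Counts were summed over the cells of a library and given as CPM, the counts scaled to the same total in every library, and all intervals are exact 95% intervals that cover counting error only. Bone marrow is the tissue given in the labels of both libraries. All 13 chondrocyte markers had at least 10 CPM in primary CDSCs, with a sum of 91370 CPM against 1043 CPM in cultured CDSCs, while 9 blood cell markers summed to 8.07 and 26.4 CPM and 8 smooth muscle and pericyte markers to 343 and 2619.7 CPM. These sums were led by a few genes, Lyz2 (2.45 and 11.8 CPM) and Pf4 (0.0729 and 7.96 CPM) among the blood cell markers and Acta2 (124 and 1227 CPM) and Tagln (38.5 and 1282 CPM) among the others, while Ptprc, Cd52, Cspg4, Mcam and Rgs5 were lower in cultured CDSCs. The part of these shifts in the ratios below was not tested. The libraries came from different animals. ZsGreen had 444 CPM in primary CDSCs and 0 UMIs in cultured CDSCs, and the Y-linked gene Eif2s3y had 8 and 18254 UMIs, so culture and animal cannot be told apart in any result below. The libraries shared 15 kept barcodes.

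The genes lie on 8 chromosomes of GRCm38. Aldh1a1 (chr19:20492715-20643465, plus strand) and Aldh1a7 (chr19:20692953-20727562, minus strand) are neighbors. Cyp1b1 is at chr17:79701537-79715061 on the minus strand, and Cyp26b1 (chr6:84571414-84593908), Rarb (chr14:16430839-16819156) and Rarg (chr15:102234938-102257517) are on the minus strand as well. Aldh1a2 (chr9:71215789-71296243), Crabp1 (chr9:54764748-54773110) and Crabp2 (chr3:87948666-87953376) are on the plus strand and Aldh1a3 (chr7:66390890-66427517) is on the minus strand. The 4 stretches of 250 bases before a RefSeq transcription start (GRCm38.p6) below are given because these genes stand for the synthesis enzymes that differed most between the libraries and for a receptor gene that retinoic acid is known to induce. They are written 5′ to 3′ on the strand of the gene. In Cyp1b1 (chr17:79715062-79715311, minus strand) capitals mark GCGTG or its reverse complement CACGC, the core of the motif bound by the aryl hydrocarbon receptor. In Rarb (chr14:16575477-16575726, minus strand) capitals mark the 2 repeats of a DR5 element, the direct repeat with a spacer of 5 bases that retinoic acid receptors bind. In Aldh1a1 (chr19:20601718-20601967, plus strand) and Aldh1a7 (chr19:20727557-20727806, minus strand) capitals mark the longest run of bases that they share. RefSeq has 2 starts for Aldh1a1, and the stretch shown is that of the start inside the gene span, while the one at chr19:20492333-20492582 was not compared with Aldh1a7.
Cyp1b1: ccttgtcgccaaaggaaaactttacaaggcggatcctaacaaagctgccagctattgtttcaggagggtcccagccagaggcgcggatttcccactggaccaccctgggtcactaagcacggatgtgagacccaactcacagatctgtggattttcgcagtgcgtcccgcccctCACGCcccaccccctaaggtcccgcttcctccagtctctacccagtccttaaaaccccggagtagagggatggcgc
Rarb: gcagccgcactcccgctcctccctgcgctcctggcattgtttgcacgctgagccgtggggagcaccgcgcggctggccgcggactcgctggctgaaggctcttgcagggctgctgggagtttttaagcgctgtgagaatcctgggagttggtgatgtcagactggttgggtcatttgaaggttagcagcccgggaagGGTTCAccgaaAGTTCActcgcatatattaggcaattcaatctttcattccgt
Aldh1a1: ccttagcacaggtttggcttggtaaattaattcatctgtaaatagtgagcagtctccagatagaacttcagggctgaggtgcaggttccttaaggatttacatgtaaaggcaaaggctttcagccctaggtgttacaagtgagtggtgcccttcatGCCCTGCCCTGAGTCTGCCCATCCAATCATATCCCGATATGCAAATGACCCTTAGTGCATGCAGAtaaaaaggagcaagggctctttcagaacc
Aldh1a7: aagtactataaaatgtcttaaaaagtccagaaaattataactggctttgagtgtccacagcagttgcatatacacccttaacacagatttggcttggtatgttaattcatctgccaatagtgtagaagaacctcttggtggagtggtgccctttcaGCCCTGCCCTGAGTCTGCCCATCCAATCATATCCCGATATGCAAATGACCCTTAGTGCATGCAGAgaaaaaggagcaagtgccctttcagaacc

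The shared run of Aldh1a1 and Aldh1a7 was 65 bases long and began 94 bases before each start. Over 175 aligned bases the upstream stretches were 91.4% identical. Neither held GCGTG, which was in 28.2% of 32851 mouse promoter stretches of the same length. The Cyp1b1 and Rarb stretches each held it or its reverse complement 1 time, and the match in Rarb is not marked. Stretches of Aldh1a2, Crabp1 and Rarg that are not shown held it as well. Those of Cyp26b1, of another Rarg start and of the other Aldh1a1 start did not. The DR5 element of Rarb, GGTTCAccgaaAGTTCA, began 53 bases before the start at chr14:16575513-16575529, and a DR5 element was found in 0.0883% of the promoter stretches. These matches describe letters and show no binding.

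The transcripts of the retinaldehyde dehydrogenase family differed between the libraries in unequal measure. Aldh1a1, the main family member of many adult tissues, had 295 UMIs or 2.15 CPM (interval 1.91 to 2.41) in primary CDSCs and 124892 UMIs or 378 CPM (376 to 380) in cultured CDSCs. The cultured level was 176-fold higher, a log2 ratio of 7.46 (7.29 to 7.63). Aldh1a7, a rodent paralog of Aldh1a1 whose product has little known activity on retinaldehyde, had 12 UMIs in primary CDSCs and 71642 in cultured CDSCs. Its level was 0.0875 CPM (0.0452 to 0.153) against 217 CPM (215 to 219), and its log2 ratio of 11.28 (10.47 to 12.23) ranked 1 among the 9115 genes that reached 10 CPM in primary or cultured CDSCs. Aldh1a2, the enzyme that makes most retinoic acid in the early embryo, had 0.153 CPM (0.0948 to 0.234) in primary and 9.38 CPM (9.05 to 9.71) in cultured CDSCs, a log2 ratio of 5.94 (5.32 to 6.63). Aldh1a3 went the other way at low levels, with 291 UMIs or 2.12 CPM (1.88 to 2.38) in primary CDSCs and 240 UMIs or 0.727 CPM (0.638 to 0.825) in cultured CDSCs, a log2 ratio of -1.55 (-1.80 to -1.29). These levels place the 4 family members in 2 patterns, with Aldh1a3 lower and the other 3 higher in culture. Cyp1b1, a cytochrome P450 that can oxidize retinol and is best known as a target of the aryl hydrocarbon receptor, had 28 UMIs or 0.204 CPM (0.136 to 0.295) in primary CDSCs. In cultured CDSCs it had 90460 UMIs or 274 CPM (272 to 276), a log2 ratio of 10.39 (9.86 to 10.98) that ranked 5.

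Of the 10 genes, 5 reached 10 CPM in primary or cultured CDSCs. Of these, 3 were at least 4-fold higher in cultured CDSCs and none was at least 4-fold lower. Among all 9115 genes at that level, 10.6% were at least 4-fold higher and 5.73% were at least 4-fold lower, 16.3% in all, with a median log2 ratio of 0.37. Because the genes were chosen with their ratios known, nothing is read from the difference between these shares. The 3 genes were Aldh1a1, Aldh1a7 and Cyp1b1, and at any level Aldh1a2 and Crabp1 were also past 4-fold. Without the filter, 11.6% of 17307 genes were past 4-fold higher and 11.2% past 4-fold lower.

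**Figure D1:**
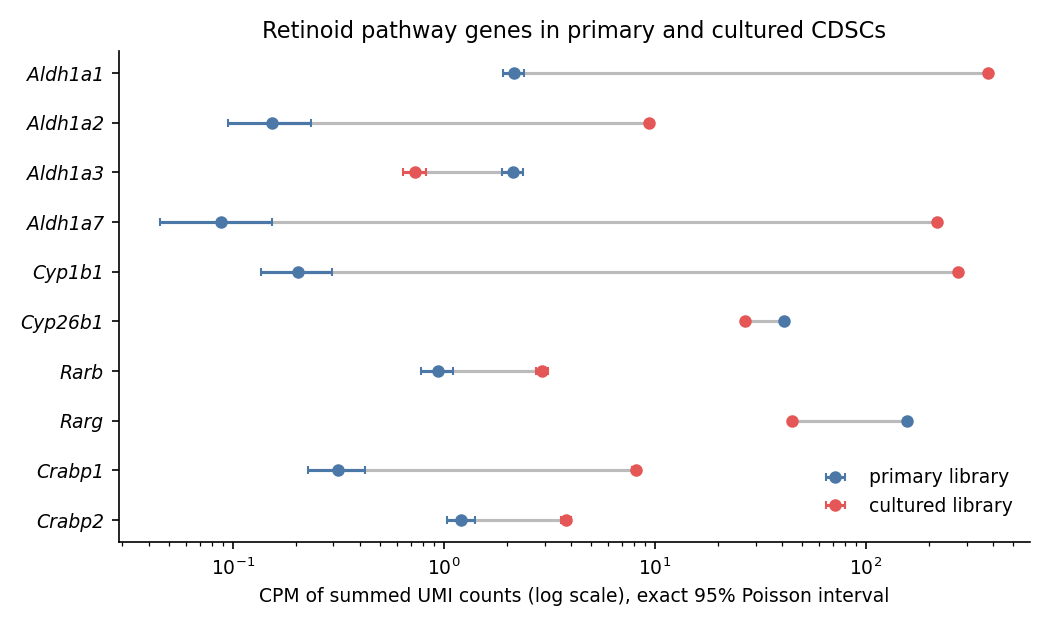
Levels of the 10 genes in primary CDSCs (blue) and cultured CDSCs (red), as CPM of summed UMI counts on a log axis with exact 95% Poisson intervals, joined by a gray line for each gene. Aldh1a1, Aldh1a7 and Cyp1b1 lie between 217 and 378 CPM in cultured CDSCs and at or under 2.15 CPM in primary CDSCs, while Rarg, Cyp26b1 and Aldh1a3 are lower in cultured CDSCs.

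**Figure D2:**
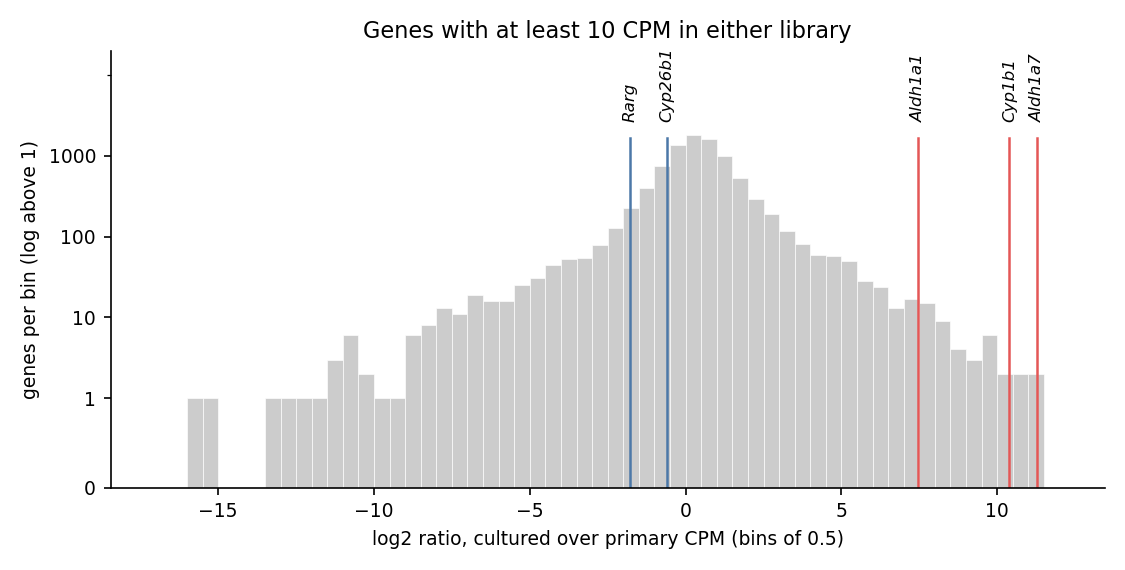
Number of genes in bins of 0.5 of the log2 ratio of cultured over primary CPM, for the 9115 genes at 10 CPM or more in primary or cultured CDSCs, with lines at the 5 of the 10 genes that reach this level. The vertical axis is linear up to 1 gene and logarithmic above. Aldh1a7 (11.28), Cyp1b1 (10.39) and Aldh1a1 (7.46) are at the far right, and Cyp26b1 (-0.61) and Rarg (-1.80) lie left of the median of 0.37.

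The 2 neighbors Aldh1a1 and Aldh1a7 resemble each other, and reads from shared stretches could have been counted for either or dropped. Their transcripts numbered 201 in the GENCODE annotation were 89.6% identical over 2050 aligned bases. Of 1977 windows of 90 bases in the Aldh1a7 transcript, 17 were also present in Aldh1a1, and in the last 500 bases, where reads of this 3′ assay concentrate, none of 411 windows was shared. The other pairs of the 4 family members were 65.8% to 68.1% identical and shared no window of 30 bases. Per 100 UMIs of Aldh1a1 there were 4.07 of Aldh1a7 in primary CDSCs and 57.4 in cultured CDSCs, and 44.3 to 82.3 in the cultured clusters with at least 50 cells. The ratio of the 2 genes thus varied between and within the libraries.

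Other genes around Aldh1a7 were compared by position. Anxa1, which codes for annexin A1 and lies on the far side of Aldh1a1 at chr19:20373434-20390671, had 21.1 CPM in primary CDSCs and 869 CPM in cultured CDSCs, a log2 ratio of 5.36. Rorb, the next protein-coding gene beyond it, had 0.627 and 3.87 CPM. On the other side Tmc1 was near the counting limit in both libraries, with 0.0365 and 0.0394 CPM. Zfand5 had 165 and 172 CPM and a log2 ratio of 0.06. Higher levels in cultured CDSCs were thus seen for Anxa1 and Rorb. On the other side of Aldh1a7 only Zfand5 was clear of the counting limit, so no pattern by position is read.

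The carriers of retinoic acid were scarce in both libraries. Crabp1, a cytoplasmic protein that binds retinoic acid, had 43 UMIs or 0.314 CPM (0.227 to 0.422) in primary CDSCs and 2681 UMIs or 8.12 CPM (7.82 to 8.43) in cultured CDSCs, a log2 ratio of 4.70 (4.26 to 5.16). Crabp2, which carries retinoic acid to the nucleus, had 166 UMIs or 1.21 CPM (1.03 to 1.41) in primary CDSCs and 1257 UMIs or 3.81 CPM (3.60 to 4.02) in cultured CDSCs, a log2 ratio of 1.65. Both were higher in cultured CDSCs, and neither reached 10 CPM. Fabp5, a fatty acid carrier that also binds retinoic acid, was the carrier list's only gene above 10 CPM, with 13.9 and 62.5 CPM and a log2 ratio of 2.17.

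The receptor genes at or above 10 CPM were lower in cultured CDSCs apart from Rxra, under all 3 scalings. Rarg, the retinoic acid receptor most associated with cartilage, had 21390 UMIs or 156 CPM (154 to 158) in primary CDSCs and 14806 UMIs or 44.8 CPM (44.1 to 45.6) in cultured CDSCs. Its log2 ratio of -1.80 (-1.83 to -1.77) did not reach 4-fold under CPM but did when the libraries were scaled by TMM (-2.14) or by DESeq2 size factors (-2.17). Rarb, which retinoic acid is known to induce, had 128 UMIs or 0.933 CPM (0.779 to 1.11) in primary CDSCs and 965 UMIs or 2.92 CPM (2.74 to 3.11) in cultured CDSCs, a log2 ratio of 1.65 (1.38 to 1.92). Of the 7 genes on the receptor list, 5 had at least 10 CPM and none was 4-fold apart under CPM. Rara, the most broadly expressed receptor, had 19.4 and 16.1 CPM, and the partner receptor Rxra had 10.04 and 21.4 CPM. Rxrb, another partner, had 36.8 and 17.5 CPM, and Ppard, a fatty acid receptor that can also respond to retinoic acid, had 58.0 and 44.2 CPM.

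Cyp26b1, which inactivates retinoic acid, was present in both libraries. It had 5603 UMIs or 40.9 CPM (39.8 to 41.9) in primary CDSCs and 8837 UMIs or 26.8 CPM (26.2 to 27.3) in cultured CDSCs, a log2 ratio of -0.61 (-0.66 to -0.56). Cyp26a1, a second inactivating enzyme that retinoic acid strongly induces, had 53 UMIs in primary CDSCs and 0 in cultured CDSCs, where 0 UMIs allow a level of up to 0.0112 CPM. Cyp26c1 had 0 and 1 UMI.

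The scaling matters to the genes near the 4-fold limit. TMM scaling, which assumes that most genes are alike, lowered every log2 ratio by 0.34 and DESeq2 size factors by 0.37, and the median over all genes then at 10 CPM or more became -0.0058 and -0.037. Of the 1488 genes past 4-fold, 64.9% were higher in cultured CDSCs under CPM, against 51.2% of 1378 under TMM and 49.9% of 1381 under DESeq2 size factors. The direction of none of the 10 genes turned.

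The share of cells with a UMI was compared after each cell had been thinned at random to 5000 UMIs, which left 10959 primary and 4543 cultured cells. Cyp1b1 had a UMI in 0.0730% (0.0315% to 0.144%) of primary cells and 65.1% (63.7% to 66.5%) of cultured cells. For Aldh1a1 the shares were 0.849% (0.685% to 1.04%) and 55.2% (53.7% to 56.7%), and for Aldh1a7 they were 0.0274% (0.00565% to 0.0800%) and 46.8% (45.4% to 48.3%). Without thinning the shares of Cyp1b1 were 0.221% and 88.8%, those of Aldh1a1 2.02% and 86.3%, and those of Aldh1a7 0.0851% and 79.2%. The shares of all 3 enzymes were thus far apart at equal depth and at full depth. Rarg was seen in 51.3% (50.3% to 52.2%) of primary cells and 19.9% (18.7% to 21.1%) of cultured cells, while without thinning the shares were 72.9% and 73.3%. Cyp26b1 was seen in 16.1% and 10.5% of thinned cells, and in 3637 of 11746 and 1931 of 5338 cells without thinning, where the order of the shares was the opposite. These unthinned shares stood beside a cultured median of 56864.5 UMIs per cell and a primary median of 10026.5. Aldh1a2 (0.0730% and 3.92%), Rarb (0.447% and 1.65%), Crabp1 (11 of 10959 cells and 2.86%) and Crabp2 (0.547% and 1.80%) were rare in both libraries, and Aldh1a3 was seen in 0.967% and 0.308% of cells. In all, 7 of the 10 thinned shares and all 10 unthinned ones were higher in cultured CDSCs, and after thinning a higher share there was found for 57.8% of all 17561 genes with a UMI and for 65.1% of the 9115 genes at 10 CPM or more.

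**Figure D3:**
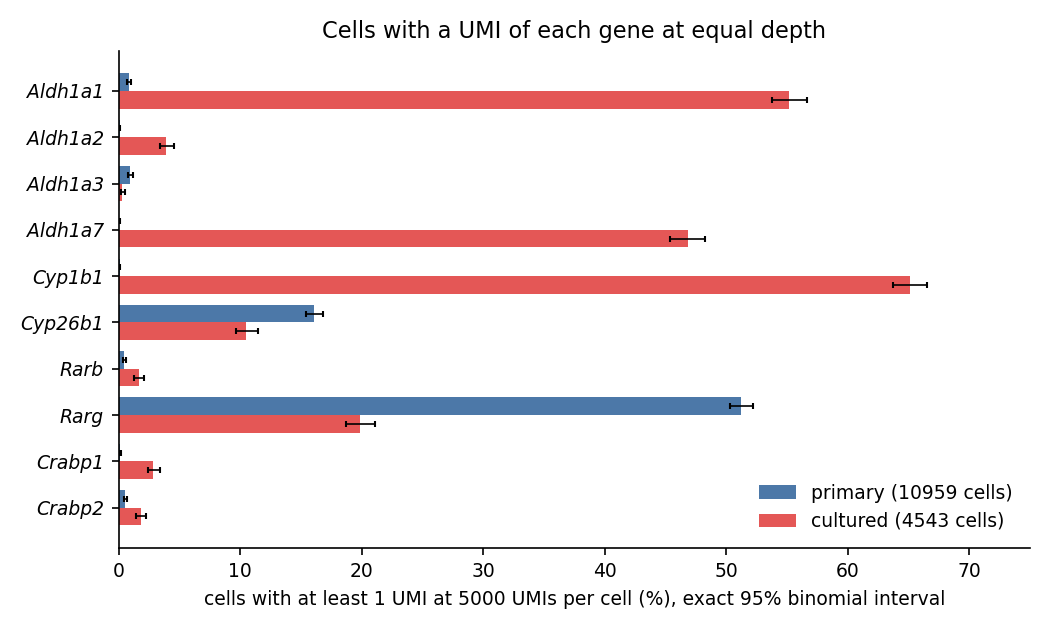
Percentage of cells with at least 1 UMI of each gene after thinning to 5000 UMIs per cell, for 10959 primary cells (blue) and 4543 cultured cells (red), with exact 95% binomial intervals. Cyp1b1, Aldh1a1 and Aldh1a7 are seen in 46.8% to 65.1% of cultured cells and in 0.849% or less of primary cells, and Rarg in 51.3% of primary and 19.9% of cultured cells.

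At this depth a primary cell held UMIs of 0.704 of the 10 genes on average and a cultured cell of 2.08. At least 2 of the genes were seen in 10.4% of primary cells and 70.2% of cultured cells. None was seen in 40.3% and 7.02% of cells. Aldh1a7 and Cyp1b1, picked for being higher in culture, had UMIs in 46.8% and 65.1% of the cultured cells. Nothing about the pathway is therefore read from these counts per cell.

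UMIs can also come from RNA that is free in the droplets. The 5460 cultured barcodes that failed the filter, with a median of 775 UMIs, had 585 CPM of Aldh1a1, 262 CPM of Aldh1a7 and 359 CPM of Cyp1b1, so each transcript was more frequent there than in the kept cells. A cluster of 9 cultured cells led by the macrophage and platelet genes Pf4, C1qb and Tyrobp, with a median of 35946 UMIs, had 54.3 CPM of Aldh1a1 (34.0 to 82.2), 14.8 CPM of Aldh1a7 and 101 CPM of Cyp1b1. All 3 levels were below those of the whole library. At 5000 UMIs, 5 of these 9 cells had a UMI of Aldh1a1, 2 had one of Cyp1b1 and none had one of Aldh1a7, with a share of up to 33.6% allowed for Aldh1a7 by its interval. The share of Aldh1a1 in these cells was 55.6% (21.2% to 86.3%) beside 55.2% in the library, and 9 cells are too few to compare the shares. The share of cultured cells with a UMI is not read as a share of cells that express the gene. In primary CDSCs, 13 cells with UMIs of at least 3 blood cell markers, with a median of 11772 UMIs, had no UMI of Aldh1a1, Aldh1a7 or Cyp1b1. This allows up to 21.6 CPM of each, above their primary levels of 2.15, 0.0875 and 0.204 CPM, so nothing is read from it. The 13 cells had 147 CPM of Rarg (94.9 to 216) against 156 CPM in the other cells. By the same marker rule, 30 cultured cells with a median of 81411.5 UMIs had 349 CPM of Aldh1a1, 129 CPM of Aldh1a7 and 228 CPM of Cyp1b1. The other cultured cells had 379, 218 and 274 CPM. The rule counts unthinned UMIs and is thus easier to meet in deeper cells. At 5000 UMIs, 10 of 26 of these marked cells had a UMI of Lyz2 and 5 had one of Ptprc. The 30 cells are therefore not read as blood cells. The part of free RNA in the levels was not tested.

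The few primary UMIs of the culture-high genes were set beside those of Y-linked genes that the cultured library held. Aldh1a7 and Cyp1b1 had 0.0403% and 0.0745% of their cultured CPM in primary CDSCs. For Eif2s3y, Kdm5d and Uty this value was 0.105%, 0.104% and 0.131%. These values rest on 12 and 28 primary UMIs of Aldh1a7 and Cyp1b1 and on 8, 2 and 11 of the Y-linked genes, so their order is not read. Aldh1a1 had 0.569% and Aldh1a2 1.63%, above these 3 Y-linked genes, while Ddx3y, also Y-linked, had 4.06%. The 12 primary UMIs of Aldh1a7 were in 10 cells and the 28 of Cyp1b1 in 26 cells, none with a barcode shared with cultured CDSCs. The source of these UMIs was not tested.

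Each library was then clustered on its own without the retinoid genes, so that these did not define the clusters. Of the 10 cultured clusters, 8 had at least 50 cells. Cluster 3, with 868 cells led by Cmss1 and Lars2, had a median of 1283.5 UMIs per cell and is given for completeness. Clusters of 1 library are not samples, and their intervals cover counting error only.

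Aldh1a1 and Aldh1a7 varied together over the cultured clusters. Aldh1a1 was highest at 620 CPM (614 to 626) in cluster 2, 876 cells led by Hmcn1, Ahrr and Garem1, and next at 473 CPM (469 to 478) in cluster 1, 1207 cells led by Klk8, Angptl7 and Lgals3. Clusters 3 (386 CPM) and 7 (375 CPM) had overlapping intervals, and 226 CPM in cluster 5, 205 CPM in cluster 4 and 148 CPM in cluster 6 followed. The lowest level was 97.6 CPM (92.3 to 103) in cluster 8, 178 cells with Ptn among the 3 leading genes that carried 3 fibroblast and 2 smooth muscle markers. The highest was thus 6.35-fold the lowest. Aldh1a7 had the same highest and lowest clusters, with 303 CPM in cluster 2 and 55.3 CPM in cluster 8, a 5.47-fold range. The dividing cells of cluster 4, led by Aspm, Cenpe and Pbk, had less of both genes than the whole library, at 205 CPM of Aldh1a1 and 152 CPM of Aldh1a7.

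Cyp1b1 varied little over the same clusters. Its level ran from 204 CPM (192 to 217) in cluster 3 to 332 CPM (325 to 340) in cluster 7, 274 cells led by Nr5a2, Barx1 and Sfrp2, a 1.63-fold range. Clusters 3, 4 and 8 had overlapping intervals at its lower end.

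Aldh1a2 was highest in a cluster in which Aldh1a1 was low. It had 38.4 CPM (36.01 to 40.98) in cluster 6, 466 cells led by Csmd1, Mmp13 and Sfrp4, and at most 10.8 CPM in any other cluster with at least 50 cells. The same cluster had the highest Rarb, at 5.58 CPM (4.69 to 6.61), the highest Rarg, at 59.5 CPM, and 90.5 CPM of Dhrs3, which codes for a retinaldehyde reductase that retinoic acid is known to induce. Without the shallow cluster 3 there were 7 clusters with at least 50 cells. Other settings, chosen after the data were seen, gave 13 such clusters at a resolution of 1 and 7 with 30 principal components in place of 10. The highest level of Aldh1a2 was then 23.5 and 15.6 CPM, and at the higher resolution it lay in a cluster led by Hp, Lcn2 and Rasl11a. The place of the highest Aldh1a2 and Rarb therefore depended on the clustering. That of Cyp1b1 moved as well. It was a cluster led by Saa3, Nell2 and Ccbe1 at the higher resolution, with 389 CPM. With 30 components it was a cluster led by Mmp13, Comp and Pparg, with 310 CPM. The highest Cyp26b1, 46.1 CPM, also lay in that cluster with 30 components. Aldh1a1 and Aldh1a7 were highest in a cluster with Hmcn1 among its 3 leading genes at all 3 settings, and Crabp1 in one with Ptn among them.

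Crabp1 had 84.3 CPM (79.3 to 89.5) in cluster 8 and 1.17 to 14.3 CPM in the other 7 clusters. Rarres1, a gene named for its response to retinoic acid, was also highest there, with 89.9 CPM against 9.16 to 25.3 CPM elsewhere. At 5000 UMIs, 17.4% (12.2% to 23.8%) of the cells of cluster 8 had a UMI of Crabp1, against 0.735% to 5.30% in the other 7 clusters. Cyp26b1 was highest in cluster 5, 631 cells led by Cytl1, Gpc3 and Aspn, at 64.8 CPM (62.2 to 67.6) against 14.5 to 34.5 CPM in the other 7 clusters. Crabp2 was highest in clusters 1 (6.16 CPM) and 2 (5.32 CPM), where the Aldh1a1 level was highest too.

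**Figure D4:**
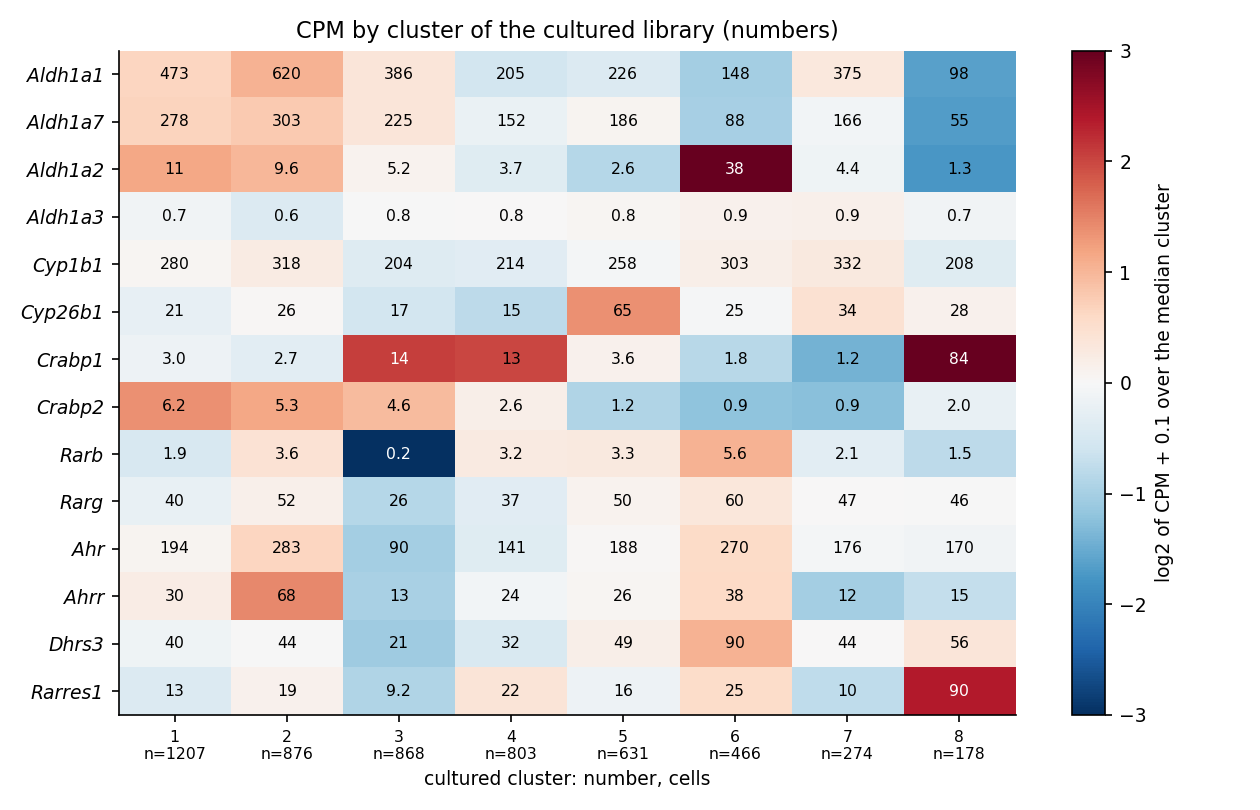
CPM of the 10 genes and of Ahr, Ahrr, Dhrs3 and Rarres1 (printed in each cell) in the 8 cultured clusters with at least 50 cells, colored by the log2 of CPM + 0.1 over the median cluster. Aldh1a1 and Aldh1a7 are highest in clusters 1 and 2 and lowest in cluster 8, Cyp1b1 stays between 204 and 332 CPM, Aldh1a2 peaks in cluster 6 and Crabp1 in cluster 8, and cluster 3 holds shallow cells with a median of 1283.5 UMIs.

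Over the 8 clusters, the genes whose log2(CPM + 1) followed Aldh1a7 most closely by Pearson's r, among genes with at least 50 CPM, were Aldh1a1 (0.95), Spcs3 (0.93), Arhgdib (0.93), Wnt10a (0.93) and Zyx (0.90). For Cyp1b1 they were Tgoln1 (0.98), Plbd2 (0.96), Rcan2 (0.95), Anxa7 (0.92) and Dbn1 (0.92). The clusters share 1 library, 3476 genes were compared, and without the shallow cluster Spcs3 stood first for Aldh1a7 at 0.96 while Aldh1a1 had 0.94.

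Cultured cells differed widely in Aldh1a1. In 3805 cultured cells thinned to 30000 UMIs, the median was 5 UMIs, the 90th percentile 29 and the maximum 141, and the 10% of cells with the most held 44.7% of the UMIs. Aldh1a7 had a median of 4 and a maximum of 69. Cyp1b1 was more even, with a median of 7, a 10th percentile of 2, a maximum of 48 and a UMI in 97.3% of cells, and the 10% of cells with the most held 27.1%. Aldh1a1 and Aldh1a7 were both seen in 73.9% of these cells against 71.5% from the product of their shares, and the correlation of their log counts was weak at r = 0.31.

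In primary CDSCs, 10 of 11 clusters with 11457 cells were chondrocyte-like by at least 3 chondrocyte markers. Rarg ran from 102 CPM (90.3 to 115) in the unnamed cluster 9 to 182 CPM (174 to 190) in cluster 5, a 1.78-fold range, and Cyp26b1 from 21.1 to 56.8 CPM. Aldh1a1 was highest in cluster 9, 289 cells with markers of mast cells, fibroblasts, endothelium and tendon, at 27 UMIs or 10.2 CPM (6.73 to 14.9). When this cluster was split further, after the data had been seen, 12 of these UMIs lay in 55 cells led by Slitrk6, Lrp1b and Hs3st5, at 38.5 CPM, which also held 18823 CPM of the collagen gene Col1a1 and 2365 CPM of the tendon gene Tnmd. The 26 cells led by the mast cell genes Cma1, Mcpt4 and Tpsb2 had 0 UMIs of Aldh1a1, where a count of 3 would be 10.2 CPM. In the dividing cluster 10 of 187 cells, led by Cenpf, Pbk and Hmmr, Aldh1a1 had 9.91 CPM (6.86 to 13.8), an interval that overlapped that of cluster 9. The other clusters had 0.377 to 3.11 CPM. Even the highest primary cluster was thus below the lowest cultured cluster of at least 50 cells, at 97.6 CPM.

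The rest of the pathway was described from lists of 87 genes, of which 44 reached 10 CPM. Of these 8 were at least 4-fold higher in cultured CDSCs and 1 was lower, and their median log2 ratio was 0.49 against 0.37 over all genes. Without the 10 genes, 5 of 39 were higher and 1 was lower, beside 10.6% higher and 5.73% lower among all 9115 genes, so nothing particular to the lists is read from these counts. The lists were chosen with earlier results of these data known. None of 8 receptor cofactors and none of 7 other aldehyde dehydrogenases with at least 10 CPM was past 4-fold under CPM. Aldh2, which clears acetaldehyde, had 134 and 174 CPM. Of 7 more aldehyde dehydrogenases under 10 CPM, Aldh1b1 (3.08), Aldh4a1 (2.59) and Aldh3b1 (2.48) were past 4-fold higher by log2 ratio, and the rest were not past 4-fold. Of the 7 retinol and retinaldehyde dehydrogenases with at least 10 CPM, Dhrs4, a retinaldehyde reductase, had 12.9 and 54.4 CPM, and its log2 ratio of 2.07 fell to 1.73 under TMM. Rdh10, the main retinol dehydrogenase of the embryo, had 12.4 and 12.3 CPM, and Dhrs3 had 82.3 and 44.4 CPM. Under TMM, 6 list genes were higher and 3 lower, since Fabp5 (1.83) and Dhrs4 dropped below 4-fold and Rarg and Aldh6a1 (-2.12) passed it.

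Of the 17 genes on a list of known retinoic acid targets, 8 had at least 10 CPM, with a median log2 ratio of -0.22. Rarres1 had 0.284 CPM in primary CDSCs and 19.9 CPM in cultured CDSCs, a log2 ratio of 6.13. It was the only one of the 8 past 4-fold higher, and 1 other was past 4-fold lower. Over all 9115 genes with at least 10 CPM, the shares past these limits were 10.6% and 5.73%. Nothing is read from these counts. Meis2, a homeobox gene, had 183 and 382 CPM, and Tgm2, a transglutaminase, had 16.8 and 8.10 CPM.

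The aryl hydrocarbon receptor list held 11 genes, of which 6 reached 10 CPM. Ahr, the receptor itself, had 98 UMIs or 0.715 CPM in primary CDSCs and 67131 UMIs or 203 CPM in cultured CDSCs, a log2 ratio of 8.15 (interval from 7.87). Ahrr, its repressor and a known target, had 0.540 and 35.0 CPM, a log2 ratio of 6.02. With Cyp1b1, which was chosen for its rise, 3 of the 6 genes were at least 4-fold higher, beside 10.6% of all 9115 genes. The list was chosen with earlier results of these data known, so nothing is read from this count. The rest of the 6 genes were Arnt, the partner of the receptor, with 54.2 and 56.5 CPM, and 2 targets. These were Tiparp with 163 and 225 CPM and Nqo1 with 44.4 and 83.1 CPM. The log2 ratios of Arnt, Tiparp and Nqo1 were 0.06, 0.47 and 0.90. Of the list genes under 10 CPM, Cyp1a1, the target best known from liver, had 8 and 39 UMIs, and Cyp1a2 had 0 in both. Ugt1a6a had 0 and 161 UMIs, Gsta1 had 4 and 58, and Aldh3a1 had 66 and 88. Their log2 ratios were 4.48 (with 0 raised to 3), 2.59 and -0.85. In the cultured clusters Ahr was highest in cluster 2, at 283 CPM, as were Ahrr and Aldh1a1. Cyp1b1 was highest in cluster 7, at 332 CPM, where Ahrr was lowest among the clusters with at least 50 cells, at 12.3 CPM. The range of Cyp1b1 over the clusters was only 1.63-fold, and its highest cluster depended on the clustering. Across cultured cells thinned to 30000 UMIs, the log counts of Cyp1b1 correlated weakly with those of Ahr (r = 0.25) and Ahrr (r = 0.09).

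**Figure D5:**
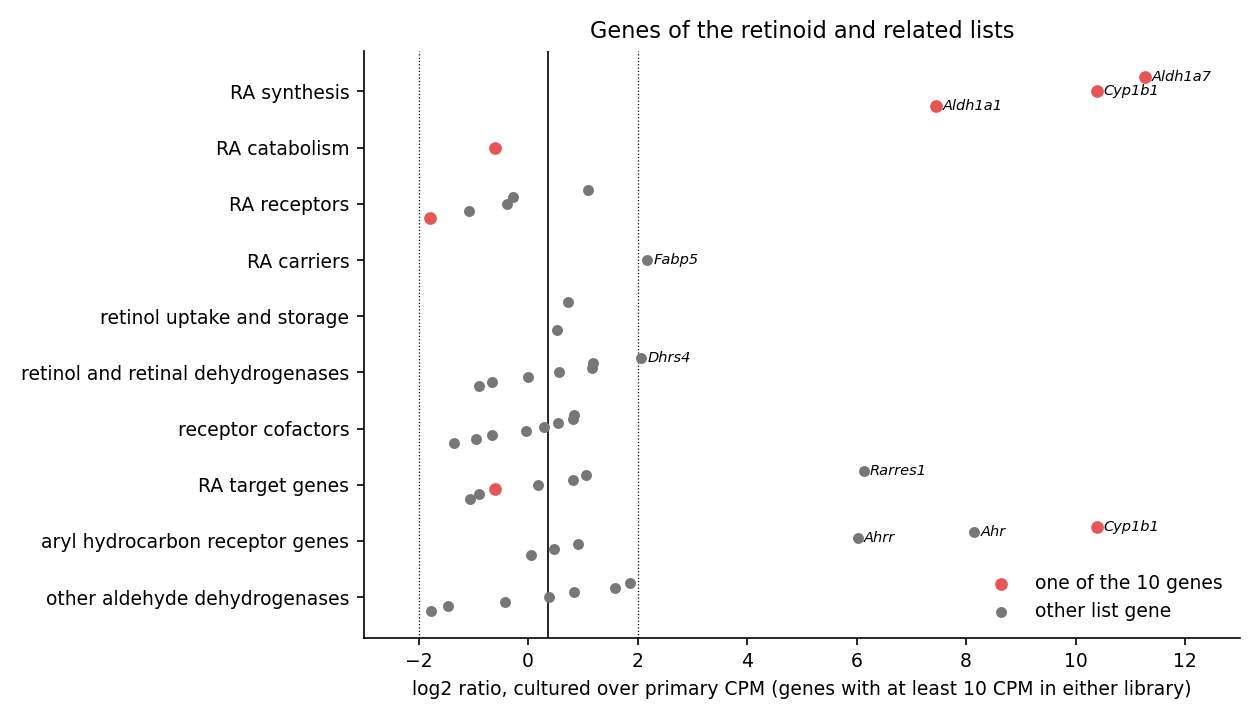
Log2 ratio of cultured over primary CPM for list genes that reach 10 CPM, 1 row per list and 1 gene not shown, with red points for the 10 genes described and gray points for others. The solid line is the median of all genes (0.37), dotted lines mark 4-fold, and labeled points are past it. The synthesis genes and Ahr, Ahrr and Rarres1 lie at 6.02 or above, and the receptor and cofactor lists lie within the dotted lines.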

How the data were processed

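Single-cell RNA-seq of 1 primary and 1 cultured CDSC library had been performed on the 10x Genomics 3′ v3.1 platform. The matrices the authors deposited hold unnormalized UMI counts for every gene and barcode, made with Cell Ranger 7.0.0 on GRCm38 (the submitters' notes also name GRCm39). The annotation release and the study's cell thresholds were not given in the sources used here. Samples were grouped by their treatment label. The 10 genes, the gene lists and the tests were chosen with earlier results of these data known.

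Barcodes were filtered as given above (scanpy 1.11.5, numpy 2.4.6). Counts were summed per library, and counts under 3 were raised to 3 in log2 ratios. A count of 3 was 0.0219 CPM in primary and 0.00909 CPM in cultured CDSCs. Poisson, Clopper-Pearson and conditional intervals are exact at 95%, and UMI intervals cover counting error only. Doublets were kept, because Scrublet called 0 and 1 cells and had thus not worked. The alternative without its highest scores left out 1118 and 461 cells. Thinning to 5000 UMIs left out 787 primary and 795 cultured cells. Clustering (leidenalg 0.10.2, resolution 0.5) used 2000 variable genes other than the retinoid genes, 10 principal components and 20 neighbors. A cluster was named only from at least 3 markers of a class at 4-fold over the other cells or, for chondrocyte-like clusters in which no class had 3, from at least 3 chondrocyte markers at 1000 CPM or more, which rests on abundance. Named genes were the 10 genes, list genes with at least 10 CPM, the 3 leading genes of a cluster, the 5 genes most like Aldh1a7 and Cyp1b1, the neighbors of Aldh1a7, and donor genes. Some list genes and leading genes are not reported here. Genes under 10 CPM named beside them were chosen after their values were seen. Scaling factors came from edgeR 4.0.16 and DESeq2 1.42.0, with no test. The ratio and interval code was tested on simulated counts. Sequences were taken from RefSeq (GRCm38.p6), where 8 of the 10 genes matched an entry, and gene positions from GENCODE M21. A DR5 element was searched on both strands by name, allowing the usual variants of its repeat, and transcripts were aligned with biopython 1.88.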

Additional observations from a re-analysis of the deposited data

How the results depend on the processing

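All 80 values of the log2 ratios of the 10 genes under alternative scalings, cell filters, doublet removal, equal cell weights, thinning and removal of doubtful clusters (the last chosen after seeing the data) kept their direction. Aldh1a7 ranged from 10.91 to 11.84, Cyp1b1 from 10.02 to 10.82, Aldh1a1 from 7.09 to 7.66 and Rarg from -2.17 to -1.74. The counts past 4-fold moved with the filter on low values. With at least 1 CPM in either library they were 5 of 10 genes, 2575 of 12839 genes overall and 14 of 61 list genes. With no filter they were 5, 3950 and 21. At a 2-fold threshold 3625 genes and 21 list genes were called. The other alternatives kept these counts within 1.5 times. Fewer or more genes entering the count accounts for the filter settings by construction. Of the shares, 7 were higher in the cultured library when cells were thinned to 5000 UMIs or to a lower or higher depth, and 10 were without thinning. No paired analysis was possible because each group has 1 library. Depth limits the rare primary transcripts, with intervals of up to 1.76 log2 units for Aldh1a7.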
